A study of Mus musculus with 3 samples.

Results

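The genes described here are the 8 cyclin-dependent kinase (CDK) inhibitor genes of the mouse: Cdkn1a, Cdkn1b and Cdkn1c of the CIP/KIP family, Cdkn2a, Cdkn2b, Cdkn2c and Cdkn2d of the INK4 family, and Cdkn3. They were chosen by name, and for each of them every peak that the authors' annotation gave to it or whose centre lay within 200 kb of one of its start sites was taken. This gave 29 of the 16113 peaks of a Seh1 library and 13 of the 5314 peaks of an IgG library, 42 in all. The series examined where the nucleoporin Seh1 binds chromatin in neural stem cells, and its title names p21, the product of Cdkn1a, as a gene that Seh1 represses.

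The cells were primary neural stem cells grown from the cortex of wild type mice at postnatal day 0, in a proliferation medium with 20 ng/ml EGF and 20 ng/ml bFGF. The labels give this medium as the treatment, and every group shared this genotype and medium. Fixation, with 1% formaldehyde for 10 min, was also the same in every group. Chromatin was immunoprecipitated with an antibody to Seh1 or with IgG, a non-specific antibody used as the background control, and an input sample was kept. There was 1 library per group, so no value has a replicate error, no test between conditions was possible, and all comparisons are descriptions of these libraries. The labels do not say whether animals were pooled, and a peak list holds no expression level, so the labelled cell type was not checked against its markers. The deposited score was 0 for every peak and read depth is unknown, which leaves width as the sole size of a peak.

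CDK inhibitors stop the cell cycle. The CIP/KIP proteins bind complexes of cyclins with several CDKs, whereas the INK4 proteins bind CDK4 and CDK6 and keep them from D cyclins, so that the retinoblastoma protein stays active and holds back S phase. In the developing cortex and in neural stem cells these proteins are known for their part in the exit of progenitors from the cycle and in quiescence. Seh1 is a scaffold protein of the nuclear pore and also belongs to GATOR2, a complex that acts on mTORC1 signalling.

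Across the family, Cdkn1a was the sole member with a Seh1 peak inside the gene. Genes with a Seh1 peak centre inside them made up 19.5% of the 21779 protein-coding genes, and 1 of 8 members is not above that share. For IgG the count was 0 of 8, against 6.26% of protein-coding genes. Neither share was matched for gene length, and the members span from 2721 bp (Cdkn1c) to 20147 bp (Cdkn2a). By the authors' annotation, which assigns a peak to the nearest start site, 4 of the 8 members were given a Seh1 peak, against 31.9% of all protein-coding genes. They were Cdkn1a, Cdkn2b with 2 peaks, Cdkn2c and Cdkn3. Cdkn1a alone of the 8 was given an IgG peak, against 11.3% of all protein-coding genes.

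**Figure D1:**
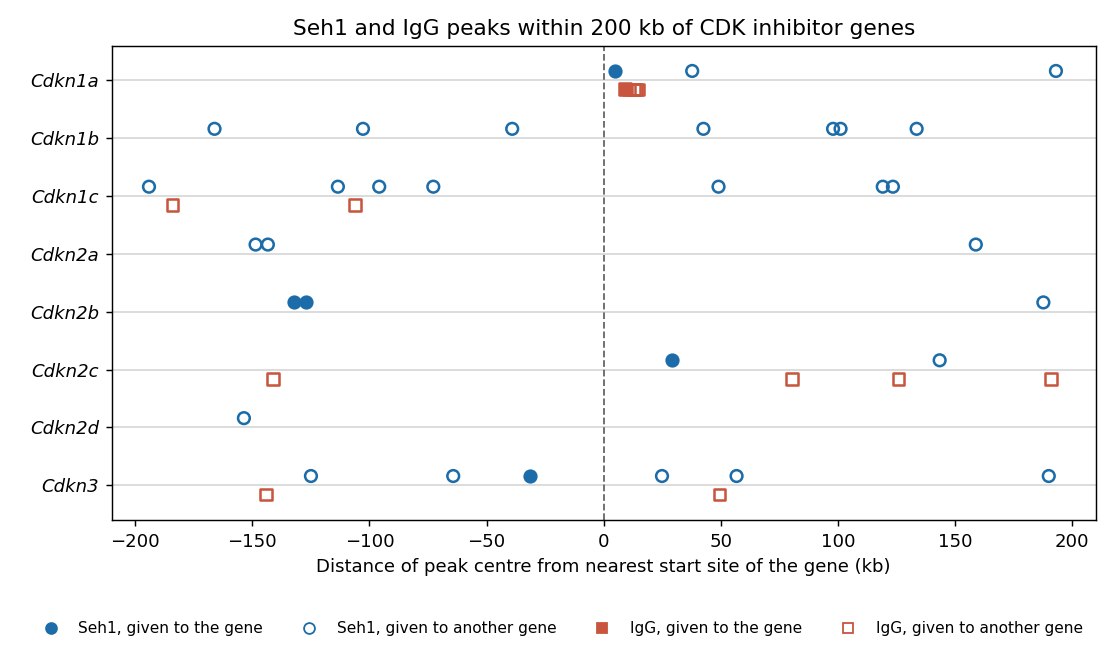
Distance in kb of each peak centre from the nearest listed start site of the gene (x axis, negative values upstream), for each of the 8 genes (rows), with Seh1 peaks as blue circles and IgG peaks as red squares. Filled symbols mark peaks given to the gene by the authors' annotation. For Cdkn1c, which has no listed start site, distance is from the nearer end of the gene in chromosome direction. The Seh1 peak of Cdkn1a lies 4.86 kb from a start site and is followed by 5 IgG peaks.

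Cdkn1a encodes p21, the inhibitor that p53 induces after DNA damage. The gene spans 29090979 to 29100722 on chromosome 17 (mm10) and has 2 listed start sites, both on the plus strand, an upstream one at 29090979 and a downstream one at 29093769. Its Seh1 peak, from 29098401 to 29098866, lay in exon 2 of 3 of the transcript that begins at the downstream site, the exon known to hold most of the coding sequence of p21. The peak centre was 4.86 kb from the downstream and 7.65 kb from the upstream start site, and the peak ended 1.86 kb before the end of the gene. Of the 17492 protein-coding genes with a listed start site, 4.62% had a Seh1 peak as near to one as this.

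From the Cdkn1a peak, the next Seh1 peak upstream was 346 kb away, and the next one downstream was 32.5 kb away, in exon 3 of 14 of Rab44, a gene of the Rab GTPase family. At 466 bp the Cdkn1a peak was wider than 95.7% of all Seh1 peaks (95% exact binomial interval 95.4 to 96.0%, which covers counting error only) and wider than 96.0% of the 866 Seh1 peaks in the exon class. That class held 5.37% of the Seh1 list, and 3.67% of protein-coding genes had such a peak in an exon of a transcript of their own. No IgG peak lay in an exon of a member, and 0.248% of protein-coding genes had one. Among the 29 Seh1 peaks near the 8 genes, 2 were wider. They were a peak of 639 bp in an intron of Gpr19 near Cdkn1b and one of 492 bp in an intron of BC004004, 193 kb from Cdkn1a.

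The IgG library held a cluster of 5 peaks just beyond the 3′ end of Cdkn1a. They lay between 29102865 and 29108547, within 5.68 kb, and began 2.14 kb past the end of the gene and ended 5.58 kb before Rab44. Their widths in order were 285, 583, 658, 379 and 296 bp, and their centres lay 4.37, 5.92, 7.92, 8.84 and 9.77 kb from that of the Seh1 peak. The peak of 583 bp was wider than 97.1% and that of 658 bp wider than 98.0% of the IgG list. All 5 were classed as intergenic and none was labelled as a repeat. The authors' annotation gave the first to Cdkn1a and the other 4 to Rab44, so a count by gene name shows 1 IgG peak at Cdkn1a where the locus holds 5.

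**Figure D2:**
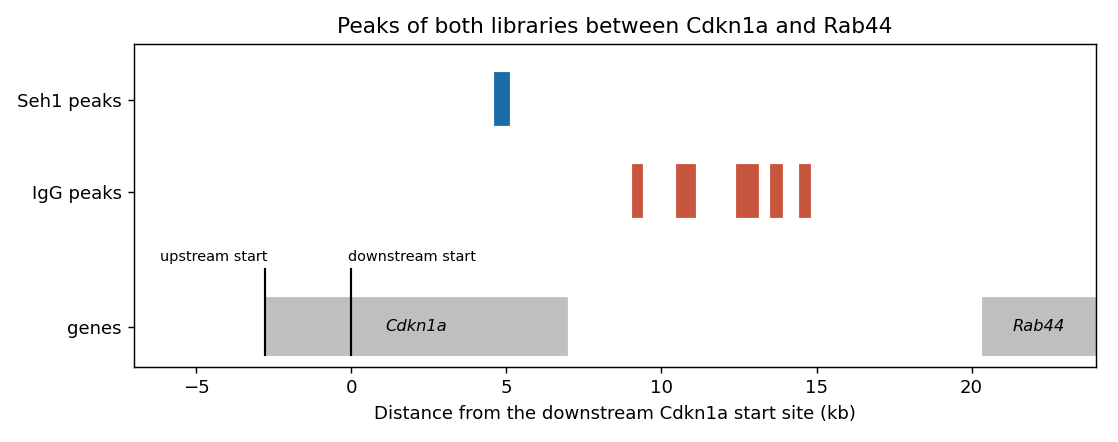
Peaks of both libraries drawn to scale against distance in kb from the downstream Cdkn1a start site, with the bodies of Cdkn1a and Rab44 in grey and both start sites as vertical lines. Rab44 continues beyond the right edge. The Seh1 peak lies inside Cdkn1a, and the 5 IgG peaks lie between the genes without touching it.

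Clusters of this kind were few. Joining IgG peaks separated by at most 5 kb gave 38 clusters of 5 or more, which held 351 peaks or 6.61% of the IgG list. Of these, 6 lay in a 1 Mb bin with fewer than 20 IgG peaks, the Cdkn1a cluster among them, and its bin held no other IgG peak. Only 20 of the 17492 protein-coding genes with a listed start site (0.114%) had 5 or more IgG peaks within 20 kb of one. Among the 16113 Seh1 peaks, 60 (0.372%) had at least 5 IgG peak centres within 10 kb. Of the 866 Seh1 peaks in the exon class, the Cdkn1a peak was the 1 that did at this radius. Within 20 kb, 170 Seh1 peaks (1.06%) had at least 5, 5 of them in the exon class. Within 5 kb the Cdkn1a peak had 1 IgG peak, and 393 Seh1 peaks (2.44%) had at least 1, 17 of them in the exon class. The Seh1 and IgG peaks at Cdkn1a did not overlap, and no Seh1 peak overlapped the span of the cluster. These shares were computed after the cluster had been seen, and its part in the Seh1 peak was not tested.

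No peak of either library overlapped a promoter window at the Cdkn1a start sites. Both windows, from 250 bases before to 50 after the start site, are printed because the series title concerns the transcription of this gene and the measured peak lies away from them. Sequences are from RefSeq, build GRCm38.p6, plus strand, 5′ to 3′. Capitals mark the letters CATGNNNNNNCATG, the core of the canonical p53 response element, and the GC box GGGCGG, both searched on both strands. None of the 10 windows listed for the members held both.
Cdkn1a upstream start, chr17:29090729-29091028: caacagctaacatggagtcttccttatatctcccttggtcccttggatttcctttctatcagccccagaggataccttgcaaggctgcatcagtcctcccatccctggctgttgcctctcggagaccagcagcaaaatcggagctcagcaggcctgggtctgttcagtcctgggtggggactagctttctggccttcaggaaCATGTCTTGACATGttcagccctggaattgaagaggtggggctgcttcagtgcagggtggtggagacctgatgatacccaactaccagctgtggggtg
Cdkn1a downstream start, chr17:29093519-29093818: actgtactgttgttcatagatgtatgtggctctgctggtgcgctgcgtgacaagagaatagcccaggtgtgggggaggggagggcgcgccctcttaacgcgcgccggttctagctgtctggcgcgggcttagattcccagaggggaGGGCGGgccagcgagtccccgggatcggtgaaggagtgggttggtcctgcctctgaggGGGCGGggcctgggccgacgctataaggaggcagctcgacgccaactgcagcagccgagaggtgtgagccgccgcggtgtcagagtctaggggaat

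The CATG pair began at position -48 from the upstream start site. It was in 0.701% of 21263 promoter windows of protein-coding genes and in 1 of the 10 windows of these genes. GGGCGG was in 46.2% of all windows and in 8 of the 10, the exceptions being the upstream window of Cdkn1a and the window of Cdkn2c at 109665372. The upstream Cdkn1a window held 2 CpG dinucleotides, the fewest of the 10, and the downstream window held 23. The other windows held between 8 (Cdkn2c) and 45 (Cdkn2a, at 89294619), most of them more than the median of 13 over the 21263 windows of protein-coding genes. A match describes letters and is not evidence of a bound site. None of the 10 windows overlapped a Seh1 or an IgG peak. Within 1 kb of a start site 0 of 8 members had a peak of either library, where 1.23% of protein-coding genes had a Seh1 peak and 0.16% an IgG peak.

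Cdkn1b encodes p27, which restrains progenitor division in the cortex. It lies on chromosome 6 from 134920401 to 134925525 and was given no peak of either library. The nearest Seh1 peak, 639 bp wide, lay 39.1 kb upstream, from 134881012 to 134881650, in intron 3 of 4 of Gpr19, an orphan receptor gene. It was wider than 99.4% of the Seh1 list. In total 7 Seh1 peaks lay within 200 kb of the Cdkn1b start site, and 8.97% of protein-coding genes with a listed start site had as many or more. The others were given to 1700055D16Rik, Crebl2, Apold1, Ddx47 (2 peaks) and Gprc5a. The second Ddx47 peak lay in exon 11 of 12 of that helicase gene. The nearest IgG peak was 368 kb away.

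Cdkn1c encodes p57, an imprinted inhibitor expressed from the maternal allele and held silent on the other by the long non-coding RNA Kcnq1ot1. The gene, on chromosome 7 from 143458339 to 143461059, was given no peak either. Its window also held 7 Seh1 peaks. Of these, 3 lay in introns 11, 12 and 15 of Kcnq1, between 72.7 and 113 kb away, and 1 of 246 bp lay within Kcnq1ot1, 194 kb away. On the other side of the gene, the nearest of all was a peak of 273 bp at a distance of 49.0 kb, given to Phlda2, an imprinted gene of the same domain. The other 2 were in an intron of Cars, with Mir7064 as the nearest start site. The IgG library held 2 peaks there, 1 in Kcnq1ot1 and 1 in intron 11 of Kcnq1, and neither overlapped a Seh1 peak. The lists do not separate the parental alleles.

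Among the INK4 genes, Cdkn2c had its nearest Seh1 peak 29.0 kb away, and the other 3 had theirs at 127 kb or more. Cdkn2a, which encodes p16INK4a and, in another reading frame, p19ARF, an activator of p53, and Cdkn2b, which encodes p15INK4b, neighbour each other on chromosome 4. Their windows held the same 3 Seh1 peaks and no IgG peak. Of these, 2 were given to Cdkn2b although they lay 127 and 132 kb upstream of it, in intron 5 of 9 of Gm12610, a long non-coding RNA. Gm12610 starts on the opposite strand 561 bp from a Cdkn2a start site and runs across the Cdkn2b gene. The nearer peak, of 349 bp from 89437820 to 89438168, was labelled as an RMER1A repeat. The other had the smallest width in the Seh1 list, 243 bp, and was labelled as an RLTR1B long terminal repeat. The remaining peak lay on the other side, in an intron of the non-coding gene Gm12602, 159 kb from Cdkn2a. Both Cdkn2b peaks lay far outside the gene, and 78.5% of protein-coding genes had a Seh1 peak at least as near to a start site.

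Cdkn2c encodes p18INK4c and lies on chromosome 4 from 109660876 to 109666756. It was given 1 Seh1 peak of 291 bp, from 109636225 to 109636515, which lay 29.0 kb downstream of a start site and was labelled as an ORR1E long terminal repeat. A second Seh1 peak within 200 kb, of 243 bp, lay in an intron of 4930522H14Rik. The window held more IgG than Seh1 peaks, 4 against 2, between 80.3 and 191 kb from the start sites. This was also true of Cdkn1a, with 5 against 3, and of 9.43% of all protein-coding genes with a listed start site. Cdkn2d, which encodes p19INK4d, a protein distinct from p19ARF, had the fewest peaks of the 8. A single Seh1 peak of 299 bp lay 154 kb upstream, in intron 1 of 20 of Dnm2, at an L1 element named Lx8. The nearest IgG peak was 1396 kb away.

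Cdkn3 encodes a phosphatase that acts on CDK2 and is the one member that is not an inhibitor of the CIP/KIP or INK4 type. It lies on chromosome 14 from 46760461 to 46771530. The 298 bp peak given to it was intergenic, from 46729023 to 46729320 and 31.4 kb upstream, and held no labelled repeat. A nearer Seh1 peak of 257 bp, 24.9 kb downstream, lay in intron 1 of 4 of Cnih1 and was given to that gene. The window held 6 Seh1 peaks and 2 IgG peaks. One of the IgG peaks lay in the 3′ UTR of Gmfb, 49.4 kb from Cdkn3, and a Seh1 peak lay in an intron of the same gene.

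Read in order of the nearest Seh1 peak, the members were Cdkn1a (4.86 kb), Cdkn3 (24.9 kb), Cdkn2c (29.0 kb), Cdkn1b (39.1 kb), Cdkn1c (49.0 kb), Cdkn2b (127 kb), Cdkn2a (143 kb) and Cdkn2d (154 kb). Their median was 44.04 kb, and over all protein-coding genes with a listed start site it was 52.3 kb. Within 10 kb of a start site 1 of 8 members had a Seh1 peak, where 11.8% of those genes did, and the same member had the 1 IgG peak, where 2.86% did. Within 50 kb the counts were 5 of 8 for Seh1 and 2 of 8 for IgG, against 48.5% and 13.2%. Within 200 kb they were 8 of 8 and 4 of 8, against 88.8% and 39.3%.

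The members had a median of 3 Seh1 peaks within 200 kb, with a range from 1 to 7, and the median over all protein-coding genes was also 3. For IgG the median was 1, from 0 to 5, and over all genes it was 0. Cdkn1a, with 5 IgG peaks, was in a group of 1.38% of genes with as many or more, and Cdkn2c, with 4, in one of 2.20%. The windows also differed in their number of genes. The Cdkn2d window held 13 other protein-coding genes and 1 Seh1 peak, the Cdkn1a window 10 and 3, and the Cdkn1b and Cdkn1c windows 7 genes and 7 peaks each. The Cdkn3 window held 4 genes and 6 peaks, the Cdkn2c window 3 and 2, and the Cdkn2a and Cdkn2b windows 2 and 3 each.

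**Figure D3:**
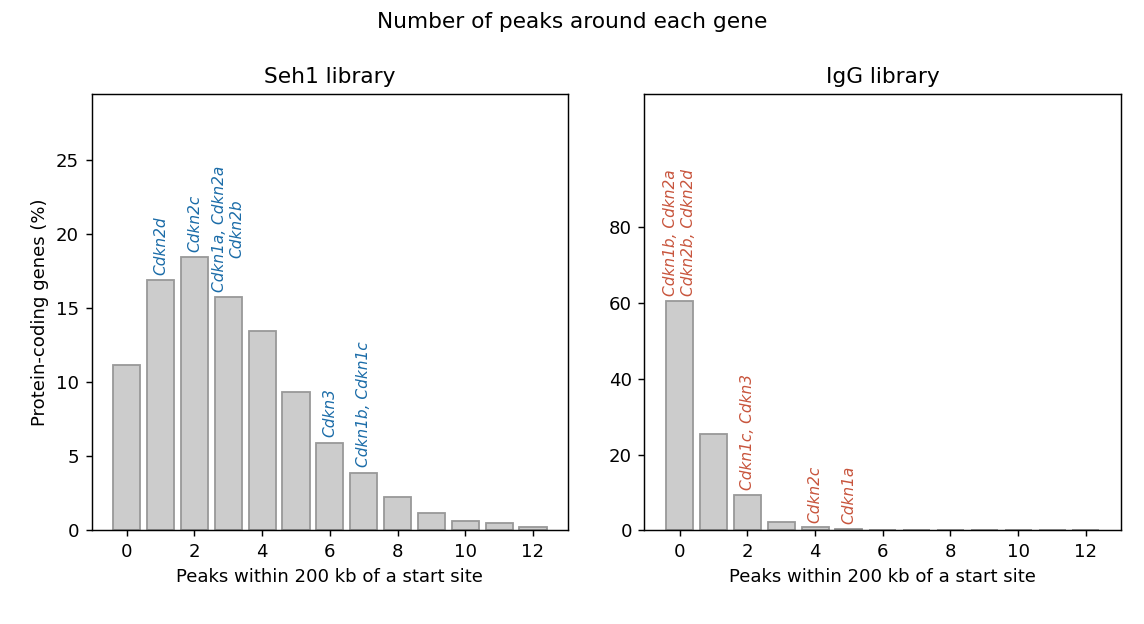
Percentage of 17492 protein-coding genes with a listed start site (y axis) by the number of peaks within 200 kb of it (x axis, shown up to 12), for the Seh1 library on the left and the IgG library on the right, with the 8 genes written above the bar of their own count. For Seh1 the genes spread from 1 to 7 around a median of 3, and for IgG Cdkn1a lies in the tail at 5.

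As a share of each list, the 29 Seh1 peaks were 0.180% (95% exact binomial interval 0.121 to 0.258%) and the 13 IgG peaks 0.245% (0.130 to 0.418%). These intervals cover counting error only and compare 1 library with 1 library, and 5 of the 13 IgG peaks form the single cluster beyond Cdkn1a. Overlap with an IgG peak was found for 0 of these 29, and for 0.372% of the whole Seh1 list. By class, 19 of the 29 were in introns, 6 were intergenic, 3 were in the exon class (Cdkn1a, Rab44 and Ddx47) and 1 was in a non-coding exon. The repeat label, which exists in these files for introns and intergenic sequence, was on 6 of the 29 Seh1 peaks (20.7%, against 39.8% of the list) and on 2 of the 13 IgG peaks (15.4%, against 52.0%). The smallest width was found for 7 of the 29 Seh1 peaks, or 24.1%, near the 27.2% of the whole list. At the edge of the 200 kb limit the last Seh1 peaks inside lay at 193 and 194 kb (Cdkn1a and Cdkn1c), and the first outside at 205 kb (Cdkn2d) and 225 kb (Cdkn2c). The last IgG peaks inside lay at 184 kb (Cdkn1c) and 191 kb (Cdkn2c), and the first outside at 206 and 210 kb (both Cdkn2c).

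**Figure D4:**
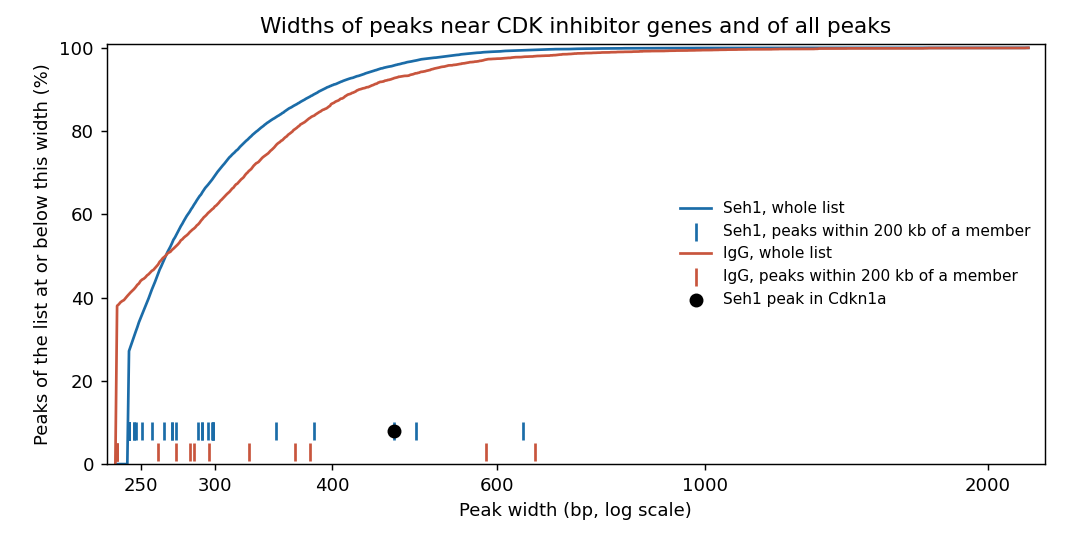
Cumulative percentage of peaks (y axis) at or below a width in bp (x axis, log scale) for the whole Seh1 list (blue line) and IgG list (red line), with ticks for the peaks within 200 kb of the 8 genes and a black dot for the Cdkn1a peak. The Cdkn1a peak, at 466 bp, has 2 wider peaks among the 29 Seh1 ticks, and 2 of the 5 IgG peaks beside it, at 583 and 658 bp, are the widest IgG ticks.

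Other protein-coding genes shared the pattern of Cdkn1a, defined as a Seh1 peak in the exon class between 1 and 10 kb from the start site, without IgG overlap, and at least 1 IgG peak given to the same gene. There were 22 such genes, Cdkn1a included. The 5 closest to it in the width of that peak were Speer4e (436 bp), Lrrc2 (432 bp), Sp110 (407 bp, in an exon of Sp140), Cyp2d9 (390 bp) and Myh2 (361 bp). This likeness rests on 1 peak per gene in 1 Seh1 library. Speer4e, of a gene family with many near copies, had 4 IgG peaks within 10 kb of its Seh1 peak and Lrrc2 had 1. The other 3 had 0. Of the 22 genes, 8 had an IgG peak within 10 kb of that Seh1 peak. Among all 866 Seh1 peaks in the exon class, 29 (3.35%) had one. The pattern itself required an IgG peak given to the gene, so the count of 8 is not an independent likeness.

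Of 54 other genes of the pathway, 53 matched the gene table. Of these, 23 (43.4%) were given a Seh1 peak, against 31.9% of all protein-coding genes. An IgG peak was given to 10 (18.9%), against 11.3%. Of the 23 genes, 2 were given a Seh1 peak within 10 kb of a start site, and for Ccnh the nearest given lay 216 kb away. By role, Seh1 peaks were given to 7 of 16 CDKs and cyclins, 5 of 13 pocket protein and E2F genes, 9 of 17 upstream regulators and 2 of 7 genes for the turnover of CDK inhibitors. IgG peaks were given to 2, 0, 6 and 2 genes of these roles in the same order. The upstream regulators thus had the highest share in both libraries (52.9% for Seh1 and 35.3% for IgG). The nearest to a start site were those of Rbl2, a retinoblastoma relative (8.49 kb downstream, intron 3), Ccne2, which encodes cyclin E2 (9.88 kb, in a B1 element of intron 10), and Cdk1, the mitotic kinase (at -12.2 kb, upstream). Then followed Rb1 (16.1 kb), the Polycomb methyltransferase gene Ezh2 (17.4 kb) and Rbl1 (17.8 kb), all in introns. The Rb1 peak was labelled as an ID_B1 repeat, and the Rbl2 and Ezh2 peaks had the smallest width in the Seh1 list, 243 bp. Trp53, which encodes the activator of Cdkn1a, was given 0 peaks in either library, as were Mdm2, Myc and Skp2. Having no Seh1 peak was the more common case, both in this list and among all protein-coding genes. Within 200 kb, Trp53 had 2, Mdm2 4 and Skp2 3 Seh1 peaks, and Myc was not counted.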

How the data were processed

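Chromatin immunoprecipitation sequencing gave a list of peaks for the Seh1 and the IgG library, and the input library was not analysed here. Per the file headers, the authors annotated each list with HOMER annotatePeaks.pl against mm10 (GRCm38). The submitters' processing notes name Bowtie2 and HOMER without versions and list the builds hg18 and hg38. No header or label names the peak caller, its threshold or the treatment of multiply mapped reads. The score that the authors deposited was 0 throughout, so widths (end minus start, both ends counted) and positions were used. Start sites were taken from a RefSeq promoter table (GRCm38.p6) that matched 7 of the 8 genes; Cdkn1c was measured from both ends of its gene. Outside chromosome Y, genes listed below 3 Mb were left out as patch sequence. Overlap meant at least 1 bp. No test was run, and the intervals, printed for some of the shares, are exact binomial (Clopper-Pearson). Functions were tested on simulated peaks. Python 3.11.15, pandas 2.3.3 and scipy 1.17.1 were used. The 8 genes, the pathway list and the rules for named genes (the nearest pathway peaks, the 5 genes closest in width to Cdkn1a) were chosen with earlier results of these data known.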

Additional observations from a re-analysis of the deposited data

How the results depend on the processing

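With genes assigned by position in place of the nearest start site, 1 member held 1 Seh1 peak and 0 members held an IgG peak (0 peaks). Keeping peaks given to a member within 100 kb of its start site left 3 Seh1 peaks in place of 5. Windows of 100 kb held 13 Seh1 and 7 IgG peaks, and windows of 500 kb held 59 Seh1 peaks. Among Seh1 peaks above the smallest width, 94.1% were narrower than the Cdkn1a peak. The median nearest distance was 30.2 kb over peaks given to the member, which counts 4 genes in place of 8. Without the Cdkn1a window, an alternative chosen after seeing the data, 8 IgG peaks remained of 13. The other alternatives stayed within 1.5 times the count or inside the interval. No paired analysis was possible because each group has 1 library. Depth is unknown, so a gene without a peak may still be bound.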

Other observations

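The 6 clusters of 5 or more IgG peaks in 1 Mb bins with fewer than 20 IgG peaks, which include the one beside Cdkn1a, differed in size. Their bins held from 5 to 19 IgG peaks, those of the cluster included. The largest held 18 peaks over 28.4 kb on chromosome 7, from 64466835 to 64495279, given to Apba2, which encodes an adaptor protein of neurons. It held no labelled repeat and no Seh1 peak. A cluster of 15 peaks over 37.6 kb on chromosome 5 was given to 4933402N22Rik and overlapped 1 Seh1 peak. A cluster of 5 peaks on chromosome 4, from 156331681 to 156337460, was given to the vomeronasal receptor gene Vmn2r123, also without a labelled repeat. The other 2 lay on chromosome Y, with 5 peaks each, of which 5 and 4 were labelled as repeats. The Apba2, Vmn2r123 and Cdkn1a clusters were the 3 of the 6 without a labelled repeat, and IgG peaks covered 26.1, 32.2 and 38.7% of their spans.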
